A study of Mus musculus with 85 samples.

Results

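The replication-dependent core histone genes are followed here through mouse preimplantation development, in embryos cultured with and without pyruvate or lactate. Members were the rows of the deposited expression table whose symbol begins with Hist1 to Hist4 followed by H2A, H2B, H3 or H4, and whose level passed 1 CPM (reads per 1000000 reads of the library) in at least 3 libraries. Of 64 matching symbols, 42 met that level: 17 of 20 H2A genes, 8 of 19 H2B genes, 9 of 12 H3 genes and 8 of 13 H4 genes. They stand among 37368 rows used, of which 22523 met the same level. Linker histones were left out of the members. Just inside the level lay Hist1h4k, Hist1h2ao and Hist1h2ai, each above 1 CPM in 3 libraries, with highest values of 1.40, 1.48 and 1.87 CPM. Just outside lay Hist1h4n, Hist1h3a and Hist1h3d, each above 1 CPM in 2 libraries, with highest values of 1.85, 1.40 and 1.18 CPM.

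The data were 85 Smart-seq2 RNA-seq libraries of wild-type B6C3F1/J embryos, with ages counted in hours after the injection of hCG that triggers ovulation. The standard medium, KSOM, held 5 mM lactate, with pyruvate and glucose at 0.2 mM each. In the media tests, pyruvate or lactate was left out, and 1 group without pyruvate also received 20 nM KY-PYR-9, labelled a myc inhibitor. Embryos without pyruvate were sampled as mid 2-cell (42 h, n = 4), late 2-cell (48 h, n = 5), very late 2-cell (52 h, n = 4) and latest 2-cell (55 h, n = 4), as morulae (78 h, n = 5; with the inhibitor, n = 4) and as blastocysts (114 h, n = 5). Embryos without lactate were sampled as morulae (78 h, n = 5) and blastocysts (114 h, n = 4). The standard groups were early 2-cell (34 h, n = 3), mid 2-cell (42 h, n = 4), late 2-cell (48 h, n = 3), very late 2-cell (52 h, n = 3), early 4-cell (55 h, n = 4), late 4-cell (62 h, n = 4), early 8-cell (66 h, n = 3), late 8-cell (74 h, n = 2), morula (78 h, n = 6), early 16-cell (80 h, n = 5), early 32-cell (90 h, n = 4) and blastocyst (114 h, n = 4). The labels do not give the number of embryos in a library or separate cultures, so a p-value here measures the spread between libraries.

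Core histones H2A, H2B, H3 and H4 form the protein core of the nucleosome. Most of the mRNA for newly replicated chromatin comes from clustered genes that are switched on in S phase, and these mRNAs end in a short stem-loop bound by SLBP (stem-loop binding protein) in place of a poly(A) tail. Some of these genes can also make polyadenylated mRNA by using a cleavage site beyond the stem-loop; in human cells HIST2H2BE and HIST1H2AC are known examples. The present libraries were primed with oligo-dT, so they record histone transcripts that carry a tail or an internal stretch of A, and not the total histone mRNA of an embryo.

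The members' own sequences show the ending in question. A search of the GENCODE vM21 transcripts for a stem of 6 base pairs around a 4-base loop (the stem arms GGNNCT and AGNNCC around the loop TTTN) found it in 26 of the 42 members and in 55 of 55341 annotated genes (0.0994%). The 5 forms found in members follow, with the paired stem bases in capitals and the loop in lower case. They are shown because the H2A, H2B and H3 members share stem letters that differ from those of the H4 members.
H2A (9 members, Hist1h2ap included), H2B (4 members), Hist2h3c1 and Hist2h3c2: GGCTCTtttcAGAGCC
Hist1h2bk, Hist1h3c, Hist1h3e and Hist1h3f: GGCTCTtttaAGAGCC
Hist2h2ac: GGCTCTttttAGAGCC
Hist1h4c, Hist1h4d, Hist1h4h and Hist4h4: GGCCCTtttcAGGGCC
Hist1h4i and Hist2h4: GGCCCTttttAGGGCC

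The annotated transcripts differed in what follows the loop. In Hist1h2ap (GRCm38 chr13:21833026-21833507, minus strand) the stem-loop lay at chr13:21833029-21833044, and 3 bases followed it. In Hist2h3c1 (chr3:96246685-96248509, plus strand) it lay at chr3:96247327-96247342, and 1167 bases of transcript followed. Annotated sequence also ran on for 454 bases in Hist1h4c (chr13:23697635-23698454, minus strand), 1643 bases in Hist3h2a (chr11:58954685-58956830, plus strand), 151 bases in Hist1h2ae (chr13:23570517-23571220, minus strand) and 2445 bases in Hist4h4 (chr6:136801553-136804415, minus strand). In all, 13 members had at least 100 annotated bases after the stem-loop, 13 had fewer, and no match was found in the transcripts of 16, such as Hist1h2bc (chr13:23684199-23692908, plus strand) and Hist2h2be (chr3:96221119-96223738, plus strand). By chromosome, 32 members lay on chromosome 13, 8 on chromosome 3, and Hist3h2a and Hist4h4 alone on chromosomes 11 and 6.

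Promoter windows of 300 bases (250 before and 50 after the start) were in RefSeq GRCm38.p6 for 37 members. Either strand was searched for CCAAT and for TATAAA. The octamer (ATTTGCAT) and the GC box (GGGCGG) were searched in the same way, and no motif of the 4 contains another. CCAAT was in 33 of 37 member windows, against 37.4% of 32851 windows of all genes, and was in 16 of 16 H2A windows but 3 of 7 H4 windows. The octamer was in 9 member windows (7 H2A and 2 H2B), against 1.74% of all windows. TATAAA was in 17, against 13.6%, and GGGCGG in 14, among them 6 of 7 H4 windows, against 35.7%. The windows of Hist1h2ap and Hist1h2an, 2 H2A genes highest in standard blastocysts, and of Hist2h3c1, an H3 gene highest in 2-cell embryos without pyruvate, follow on the gene's strand with every match to the 4 motifs in capitals.
Hist1h2ap, chr13:21833426-21833725, minus strand: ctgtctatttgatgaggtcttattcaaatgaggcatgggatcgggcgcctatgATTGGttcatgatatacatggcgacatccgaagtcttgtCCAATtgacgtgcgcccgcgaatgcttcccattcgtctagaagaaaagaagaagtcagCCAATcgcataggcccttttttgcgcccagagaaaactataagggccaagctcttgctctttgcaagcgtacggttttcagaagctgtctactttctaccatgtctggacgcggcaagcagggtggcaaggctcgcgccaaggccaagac
Hist1h2an, chr13:21787199-21787498, minus strand: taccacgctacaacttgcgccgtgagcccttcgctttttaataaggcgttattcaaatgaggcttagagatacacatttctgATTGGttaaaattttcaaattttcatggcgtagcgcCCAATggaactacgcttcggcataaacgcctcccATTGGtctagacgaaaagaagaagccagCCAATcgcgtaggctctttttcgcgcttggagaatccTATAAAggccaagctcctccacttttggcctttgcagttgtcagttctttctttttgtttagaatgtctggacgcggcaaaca
Hist2h3c1, chr3:96246435-96246734, plus strand: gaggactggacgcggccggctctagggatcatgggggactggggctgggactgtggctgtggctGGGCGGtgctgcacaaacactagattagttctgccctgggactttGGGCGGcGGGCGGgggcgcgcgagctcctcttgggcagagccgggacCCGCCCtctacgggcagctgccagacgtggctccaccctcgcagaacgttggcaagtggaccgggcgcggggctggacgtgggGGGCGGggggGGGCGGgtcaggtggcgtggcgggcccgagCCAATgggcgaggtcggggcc
The Hist1h2ap window held CCAAT in either orientation (CCAAT or ATTGG) and no other motif of the 4, the Hist1h2an window held CCAAT and TATAAA, and the Hist2h3c1 window held 1 CCAAT and several GC boxes. A match is a description of the letters and not a mapped binding site.

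Sequence sharing limits which gene a read is given to. Of 50-base stretches of the annotated transcripts, 93.1% of those in Hist1h2ap occur in at least 1 of 24 other genes, as do 85.8% in Hist1h2an, 79.7% in Hist1h2af, 90.7% in Hist1h2ah, 52.3% in Hist1h2ak and 43.2% in Hist1h2ae. In Hist2h3c1 and Hist2h2aa2 the share was 100%, in Hist2h3b 79.7% and in Hist2h2aa1 89.4%, against 30.1% in Hist1h2bc, 19.6% in Hist1h4c, 7.07% in Hist4h4 and none in Hist2h2be. In all, 23 members shared more than 50% of their stretches. The level of a single gene among these is therefore uncertain, and for H2A and H3 sums over several members are given beside the single genes. For 38 of 41 members, fewer than 50% of the low values were a whole number of reads (within 0.1 read), while Hist2h2be and Hist4h4 gave whole numbers throughout. Further, 19 members overlap another annotated gene, and the strand of the reads is not stated. Most overlap predicted miRNA genes on the other strand, while Hist3h2a lies wholly within Trim17 on its own strand. The processed transcript Gm20634 overlaps both Hist2h3c1 (all 1825 bases) and Hist2h2aa1 (529 of 586 bases) on their own strand. Hist2h3b overlaps the antisense gene Gm20628 over 488 bases. How reads were divided among these genes is not known.

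Depth was inferred by taking the most frequent non-zero value of a library, less the added 0.0001, as 1 read. It was 10.2 M to 42.6 M reads a library (M for 1000000, median 19.6 M). A value of 1 CPM thus rests on about 10.2 to 42.6 reads, with a relative counting error of 31.3% at the shallowest and 15.3% at the deepest library. Maternal and trophectoderm marker sums followed the labelled stages: 5 oocyte and maternal genes (such as Zp3 and Gdf9) summed to 18502 to 21519 CPM in early 2-cell libraries, and 5 trophectoderm genes (such as Cdx2 and Krt8) to 12879 to 17644 CPM in standard blastocysts. Other lists did so less closely. The 5 inner cell mass and primitive endoderm genes summed to 510 to 544 CPM in early 32-cell and 231 to 321 CPM in standard blastocysts. The 5 marker genes of the 2-cell stage summed to 2472 to 3381 CPM in mid 2-cell, 865 to 1289 CPM in very late 2-cell and 1535 to 1916 CPM in late 4-cell. A set of 4 libraries stood apart within their groups. Standard morula libraries 1 and 2 had 34.8% and 30.2% of all CPM in their 100 highest genes, against 24.2 to 25.6% in the other 4, and 11 of the 42 members (26.2%) were higher in both than in any of the other 4, against 13.2% of all genes above the same level. Pyruvate-free morula libraries 4 and 5 had trophectoderm sums of 1086 and 869 CPM, against 255 to 313 CPM in the other 3.

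One gene carried most of the signal. Hist1h2ap, which encodes an H2A, averaged 175 CPM over the 21 group means, and the next were Hist1h2bc, an H2B gene (4.05 CPM), Hist1h2ae (H2A, 3.85 CPM), Hist2h3c1 (H3, 2.96 CPM) and Hist3h2a (H2A, 2.81 CPM). Of the 42 members, 31 averaged below 1 CPM and 7 reached 10 CPM in their highest group. Per kilobase of exon the mean level was 364 CPM for Hist1h2ap, 6.36 for Hist1h2an, 5.46 for Hist1h2ae, 3.66 for Hist1h2af and 3.51 for Hist1h2bc. Hist1h2ap alone made up 4.9% of the summed level of all members in early 2-cell embryos, 50.2% in mid 2-cell, 78.1% in late 2-cell, 94.9% in early 16-cell and 83.3% in blastocysts of the standard series.

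**Figure D1:**
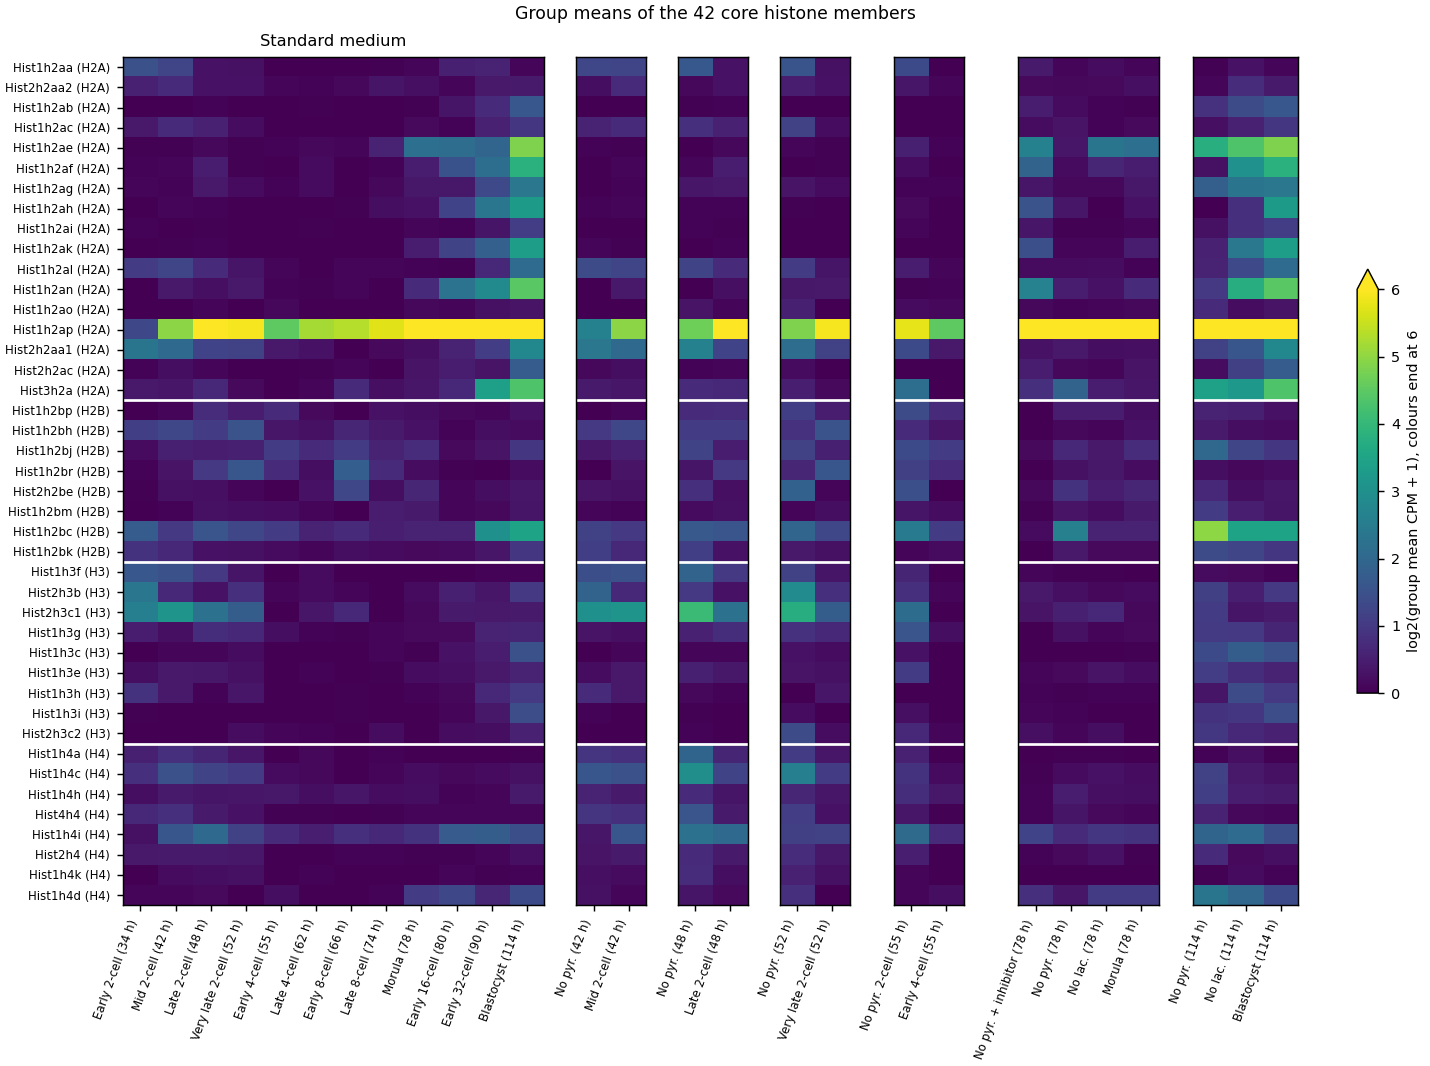
Group mean of each of the 42 members (rows, grouped by H2A, H2B, H3 and H4) in each of the 21 groups (columns, standard series at left and the media comparisons by age at right), as log2(group mean CPM + 1), with colours ending at 6. Hist1h2ap is bright in nearly every column; in the standard columns 15 of 17 H2A genes are brightest in blastocysts and 7 of 8 H4 genes in 2-cell embryos, while the H3 genes divide between the 2.

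Across the standard series the members split by stage. The group with the highest mean was a 2-cell group for 15 members, the blastocyst for 23 and another stage for 4. Of the H4 genes 7 of 8 were highest in a 2-cell group, and of the H2A genes 15 of 17 were highest in the blastocyst. The H3 genes divided as 4 and 5, and the H2B genes as 2 and 2, with 4 highest in between. These counts are a description and no test, because the level for membership used the same values. A low member such as Hist1h2ai, above 1 CPM in 3 libraries and highest in blastocysts, could meet it only where it was high. The H2A genes share much sequence, and the share of all genes highest at each stage was not computed. The summed level of the members other than Hist1h2ap averaged 27.9, 29.4, 23.1 and 17.8 CPM in the 4 2-cell groups in order of age, 6.36 and 4.37 CPM in early and late 4-cell, 9.29 and 5.75 CPM in early and late 8-cell, 12.5 CPM in morulae, 21.3 CPM in early 16-cell, 49.0 CPM in early 32-cell and 145 CPM in blastocysts. The number of members with a group mean above 1 CPM was 8 or 9 in the 2-cell groups, 1 to 4 from early 4-cell to morula, 8 in early 16-cell, 11 in early 32-cell and 18 in blastocysts. These bulk values are shares of each library, and fewer cells of a type and less RNA per cell cannot be told apart in them.

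**Figure D2:**
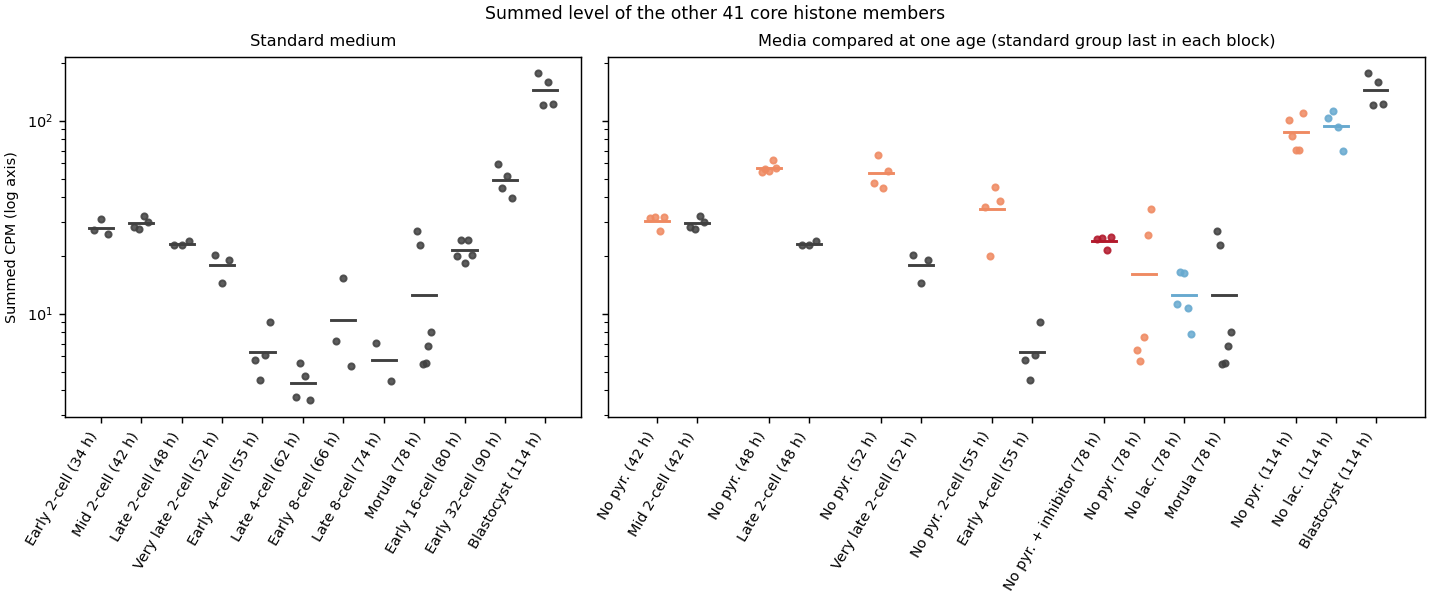
Summed level of the 41 members other than Hist1h2ap (CPM, log axis) in each library (points), with the group mean (bars), for the standard series (left) and for the media compared at one age, with the standard group last in each block (right). The standard sums are low from early 4-cell to late 8-cell and highest in blastocysts, and pyruvate-free 2-cell embryos at 48, 52 and 55 h lie above their standard groups.

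Within the 2-cell stage, Hist1h2ap rose while the mean H3 sum was lower at each later age and the mean H4 sum was highest at 42 and 48 h. Its level was 1.75, 1.34 and 1.24 CPM in early 2-cell libraries, then 30.6, 31.7, 23.0 and 34.4 CPM in mid 2-cell, 83.2, 91.4 and 73.6 CPM in late 2-cell, and 93.3, 45.0 and 41.5 CPM in very late 2-cell libraries. Every mid 2-cell library exceeded every early 2-cell library, and every late 2-cell library exceeded every mid 2-cell one. The difference on the log2(CPM + 1) scale was 3.65 (SE 0.41) for mid against early 2-cell (limma, Benjamini-Hochberg adjusted p = 5.5e-10) and 1.45 (SE 0.41) for late against mid 2-cell (limma, adjusted p = 0.0026). The later step was not past the threshold under median-ratio or quantile scaling. Across these 2 and removal of the trend with gene length it was 0.56 to 1.11. The sum of 12 H2A genes that share more than 50% of their 50-base stretches averaged 7.12, 35.6, 86.1 and 62.1 CPM at 34, 42, 48 and 52 h. Hist1h2ap is 1 of the 12 and averaged 1.44, 29.9, 82.7 and 59.9 CPM at those ages. From 42 h on the sum is thus mostly Hist1h2ap, and its course is no separate support. At the same ages the 9 H3 members summed to 12.6, 10.9, 6.15 and 4.83 CPM, the 8 H4 members to 2.56, 6.297, 6.301 and 3.62 CPM and the 8 H2B members to 4.57, 4.02, 5.79 and 6.63 CPM.

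From early to mid 2-cell, 27 members passed the filter for testing, of which 3 rose and 2 fell, where 50.7% of 20159 genes were called, 42.9% higher and 7.71% lower. Beside Hist1h2ap, the H4 gene Hist1h4i rose to 0.947, 1.96, 1.31 and 4.05 CPM in mid 2-cell, against 0.0747, 0.267 and 0.253 CPM in early 2-cell (difference 1.26, SE 0.30, limma adjusted p = 4.2e-04), and the groups did not overlap. Hist2h3b, a gene for H3.2, fell to 0.515, 1.12, 0.172 and 0.502 CPM in mid 2-cell, against 6.55, 3.03 and 2.71 CPM in early 2-cell (difference -1.65, SE 0.19, limma adjusted p = 8.2e-10). Hist2h3c1, another gene for H3.2, stood at 7.34, 7.57, 8.59 and 6.87 CPM in mid 2-cell, against 4.06, 6.31 and 4.58 CPM in early 2-cell, and the H3 sum was 10.9 ± 1.48 CPM, against 12.6 ± 2.25 CPM (SD, n = 4 and 3). Hist1h4c rose and Hist1h2bc fell by the same test, but Hist1h4c (difference 0.66) did not pass under 3 other scalings and reached -0.09 under quantile scaling. Other scalings shifted the median of all genes from 0.43 to between -0.11 and 0.03. They then gave 2 higher and 6 lower members (median-ratio), 2 and 8 (quantile) and 2 and 11 (removal of the trend with gene length).

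From mid to late 2-cell, 2 members rose and 4 fell of 27 tested, where 59.1% of genes were called, 43.4% higher and 15.6% lower. Hist2h3c1 fell to 3.47, 4.06 and 3.85 CPM in late 2-cell, against 7.34, 7.57, 8.59 and 6.87 CPM in mid 2-cell (difference -0.84, SE 0.28, limma adjusted p = 0.010), with no overlap. Hist1h2aa, an H2A variant known from testis and oocytes, fell to 0.161, 0.252 and 0.245 CPM in late 2-cell, against 1.02, 1.36, 1.79 and 1.34 CPM in mid 2-cell (difference -0.96, SE 0.14, limma adjusted p = 1.2e-07). Hist1h3f and Hist1h2al were also called lower and Hist1h2bc higher; the Hist1h2bc call was lost in 11 alternatives, the Hist1h2al call in 8 and the Hist1h3f call in 2, each without late 2-cell library 3 among others. Under median-ratio scaling the split was 0 higher and 8 lower, under quantile scaling 0 and 7, and with the length trend removed 1 and 10. Leaving out late 2-cell library 3 left 3 members called. From late to very late 2-cell, Hist1h3f and Hist1h4i fell and Hist2h3b rose, against 34% of genes called, 16.4% higher and 17.6% lower. Other scalings left 0 higher and 2 lower (median-ratio), none in either direction (quantile), and 0 higher and 2 lower (length trend).

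**Figure D3:**
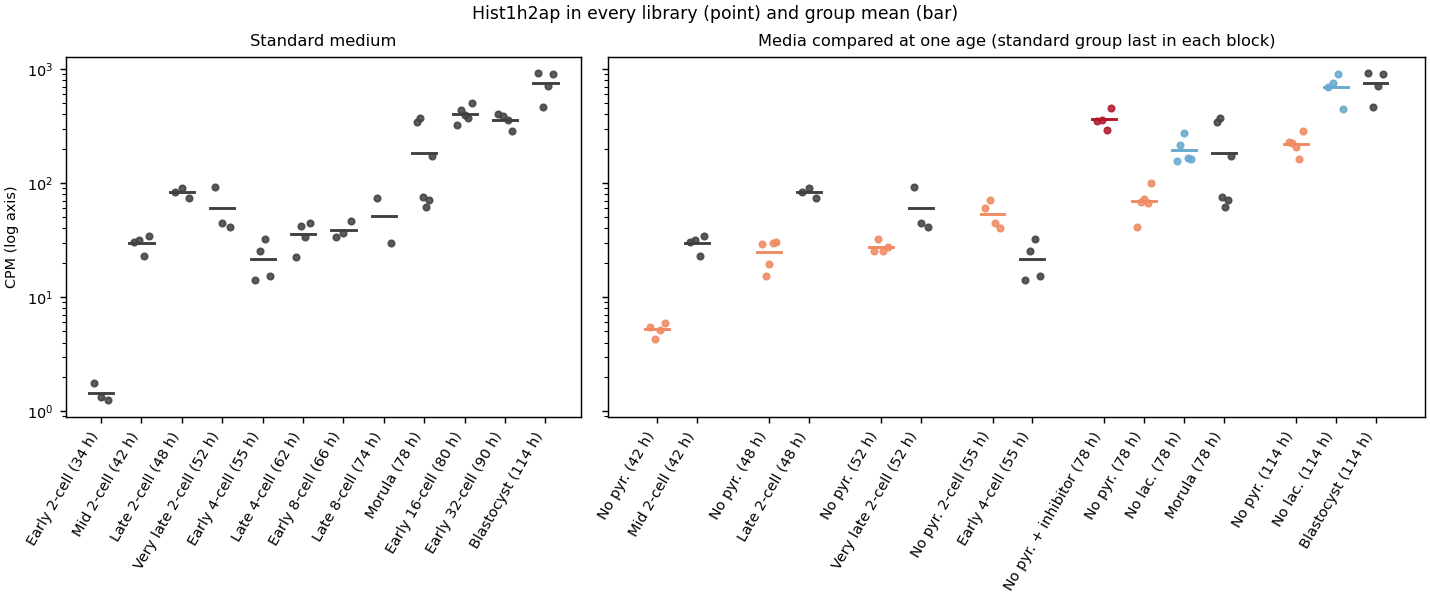
Hist1h2ap in each library (points, CPM on a log axis) with group means (bars), for the standard series (left) and for the media compared at one age with the standard group last in each block (right). The standard series starts at 1.24 to 1.75 CPM at 34 h, dips at the early 4-cell stage and ends at 466.25 to 915 CPM in blastocysts, and pyruvate-free blastocysts lie at 161 to 288 CPM.

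Between very late 2-cell and early 4-cell, the H3 sum came to 0.302 ± 0.159 CPM in early 4-cell, against 4.83 ± 1.58 CPM (SD, n = 4 and 3). Of 27 members tested, 5 fell and none rose, where 43.9% of genes were called, 31.5% lower and 12.4% higher. Hist1h2ap fell to 14.0, 25.5, 32.4 and 15.4 CPM in early 4-cell, against 93.3, 45.0 and 41.5 CPM in very late 2-cell (difference -1.40, SE 0.41, limma adjusted p = 0.0055). Without very late 2-cell library 1 that difference was -1.03 with an adjusted p of 0.0723. Hist2h3c1 had no reads in any of the 4 early 4-cell libraries, against 1.28, 1.31 and 4.57 CPM in very late 2-cell (limma adjusted p = 1.0e-05). Hist1h2bh, an H2B gene, fell to 0.343, 0.425, 0.388 and 0.0278 CPM in early 4-cell, against 2.15, 1.43 and 2.16 CPM in very late 2-cell (difference -1.17, SE 0.20, limma adjusted p = 7.5e-06). Hist1h4c and Hist2h3b also fell. Quantile scaling gave 1 member higher and 3 lower, and the length correction 1 and 5.

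From there to the 8-cell stage few members moved. None of 27 was called between early and late 4-cell by limma, and none had an unadjusted p under 0.05, while 40% of genes were called. Between late 4-cell and early 8-cell, Hist1h2br and Hist2h2be were called higher (Hist2h2be would not have passed the filter on low values without the early 8-cell libraries), where 7.45% of genes were called, 2.44% higher. Their early 8-cell values were uneven, at 2.15, 5.16 and 0.0395 CPM for Hist1h2br, and either call was lost under several alternatives. Between early and late 8-cell none was called by limma and 1 had an unadjusted p under 0.05, against 7.13% of genes called, 2.6% higher and 4.53% lower, and only 2 late 8-cell libraries were available.

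Hist1h2ap was high again in later stages. Its standard morula level had a lowest value of 61.6, a median of 124 and a highest value of 373 CPM, against 74.2 and 29.6 CPM in late 8-cell. The morula libraries spread widely, and libraries 1 and 2 (344 and 373 CPM) stood above the other 4, at 61.6 to 173 CPM. The difference from late 8-cell, 1.55 (SE 0.44, limma adjusted p = 0.0468), was the single member call where 2.52% of genes were called, 1.03% higher and 1.49% lower, and it was lost in 10 alternatives, among them the fit without those 2 libraries. In early 16-cell libraries Hist1h2ap stood at 320, 434, 396, 372 and 501 CPM, all above 4 of the 6 morula libraries and overlapping the other 2 (difference from morula 1.51, SE 0.33, limma adjusted p = 2.3e-04).

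In that step from morula to early 16-cell, 8 members rose and 1 fell of 27 tested, where 37.6% of genes were called, 9.83% higher and 27.7% lower. Of those rising, 7 were H2A genes and the other was Hist1h4i. Hist1h2an rose to 4.43, 4.06, 3.10, 4.29 and 3.47 CPM in early 16-cell, against a lowest of 0.000519 and a highest of 2.08 CPM in morulae (difference 1.67, SE 0.21, limma adjusted p = 2.1e-08), without overlap. Hist1h2af (difference 1.04) and Hist1h2ak (0.89) rose as well, and Hist1h2bj, an H2B gene, fell (-0.59). From early 16-cell to early 32-cell 7 rose and none fell, among them Hist1h2ab, Hist1h2af and Hist1h2ak as in the step before, where 20.7% of genes were called, 8.49% higher and 12.2% lower; quantile scaling gave 7 higher and 1 lower. Hist3h2a rose to 9.39, 7.72, 13.0 and 7.67 CPM in early 32-cell, against 0.319 to 0.772 CPM in 5 early 16-cell libraries (difference 2.67, SE 0.19, limma adjusted p = 1.8e-13). Hist1h2bc rose to 8.96, 5.58, 7.60 and 6.32 CPM in early 32-cell, against 0.174 to 0.805 CPM in early 16-cell (difference 2.43, SE 0.23, limma adjusted p = 1.6e-10). Neither gene's groups overlapped. Trophectoderm marker sums over the same libraries were 907 to 1387 CPM in early 32-cell and 211 to 298 CPM in early 16-cell, and their part in the result was not tested.

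The step to the blastocyst had the most member calls of the standard series. Of 27 members tested, 15 were higher in blastocysts than in early 32-cell embryos and 1 lower, where 41.8% of genes were called, 12.6% higher and 29.1% lower. The 15 comprised 11 H2A genes, 3 H3 genes and the H2B gene Hist1h2bj. Hist1h2ab, Hist1h3c, Hist1h3i and Hist2h2ac would not have passed the filter without the blastocyst libraries, so these 4 calls add no support. Trophectoderm marker sums were 12879 to 17644 CPM in blastocysts and 907 to 1387 CPM in early 32-cell, and their part in the result was not tested. Hist1h2ae rose most, to 19.1, 26.2, 30.4 and 35.7 CPM in blastocysts, against 3.67, 3.77, 2.14 and 1.93 CPM in early 32-cell (difference 2.90, SE 0.38, limma adjusted p = 3.3e-08). Hist1h2an rose to 30.6, 14.96, 24.4 and 14.6 CPM in blastocysts, against 5.17, 8.07, 7.77 and 3.63 CPM in early 32-cell (difference 1.61, SE 0.25, limma adjusted p = 6.0e-07). Hist1h2af rose to 16.8, 10.6, 12.9 and 12.5 CPM in blastocysts, against 3.82, 2.87, 4.09 and 3.23 CPM in early 32-cell (difference 1.65, SE 0.20, limma adjusted p = 3.6e-09). For these 3 genes every blastocyst library exceeded every early 32-cell library. Hist1h2ap reached 915, 466.25, 711 and 913 CPM in blastocysts, against 404, 389, 354 and 289 CPM in early 32-cell (difference 1.03, SE 0.38, limma adjusted p = 0.0276), a call lost without blastocyst library 1 or 4 or early 32-cell library 4, under quantile scaling and with no filter on low values. H1f0, the linker histone of differentiated and resting cells, was the 1 linker gene of 5 tested that rose in this step.

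Without pyruvate, Hist1h2ap was low at the age when it accumulates in standard 2-cell embryos. At 42 h it stood at 5.50, 4.27, 5.13 and 5.99 CPM without pyruvate, against 30.6, 31.7, 23.0 and 34.4 CPM in standard medium (difference -2.31, SE 0.25, limma adjusted p = 9.9e-10). At 48 h it stood at 29.1, 15.3, 19.4, 29.5 and 30.2 CPM without pyruvate, against 83.2, 91.4 and 73.6 CPM (difference -1.75, SE 0.25, limma adjusted p = 3.3e-07). At 52 h it stood at 25.4, 32.4, 25.5 and 27.3 CPM without pyruvate, against 93.3, 45.0 and 41.5 CPM (difference -0.996, SE 0.26, limma adjusted p = 0.0015). The groups did not overlap at any of the 3 ages. At 55 h, when the embryos without pyruvate were still labelled 2-cell and the standard ones were early 4-cell, the order was the other way round: 60.2, 71.7, 44.3 and 40.1 CPM without pyruvate, against 14.0, 25.5, 32.4 and 15.4 CPM (difference 1.31, SE 0.25, limma adjusted p = 2.7e-05). The sum of the 12 near-identical H2A genes averaged 11.3, 32.1, 33.5 and 56.8 CPM at 42, 48, 52 and 55 h without pyruvate, against 35.6, 86.1, 62.1 and 22.5 CPM in the standard groups. Hist1h2ap, among the 12, averaged 5.22, 24.7, 27.7 and 54.0 CPM at those ages without pyruvate, so the sum is no separate support.

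**Figure D4:**
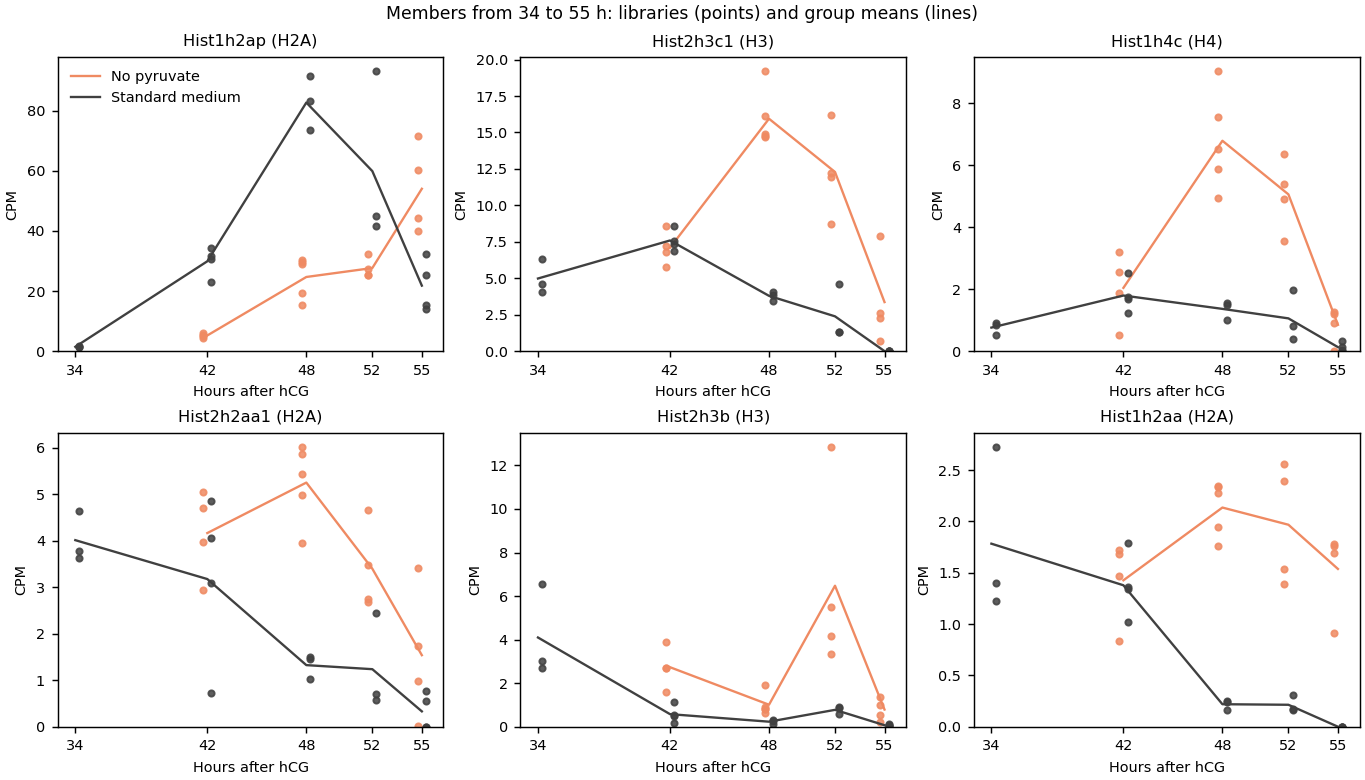
CPM of 6 members against hours after hCG, from 34 to 55 h, in single libraries (points) and as group means (lines), without pyruvate and in standard medium. Hist1h2ap lies below the standard line from 42 to 52 h and above it at 55 h without pyruvate, whereas Hist2h3c1, Hist1h4c, Hist2h2aa1 and Hist1h2aa lie above the standard line from 48 h on.

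Most other members that changed moved the other way from Hist1h2ap between 48 and 52 h. At 42 h, 3 of 25 tested were called: Hist2h3b higher, and Hist1h2ap and Hist1h4i lower, where 36.8% of genes were called, 5.58% higher and 31.2% lower. Hist2h3b stood at 1.62, 2.71, 3.89 and 2.72 CPM without pyruvate, against 0.515, 1.12, 0.172 and 0.502 CPM (difference 1.24, SE 0.28, limma adjusted p = 4.2e-04), and Hist1h4i at no reads to 0.440 CPM, against 0.947 to 4.05 CPM (difference -1.17, SE 0.28, limma adjusted p = 8.2e-04). Other scalings moved the median of all genes from -0.26 to between 0.05 and 0.11, and gave 5 members higher and 2 lower (median-ratio), 7 and 2 (quantile) or 2 and 2 (length trend). The H3 sum was 12.6 ± 1.38 CPM without pyruvate, against 10.9 ± 1.48 CPM (SD, n = 4 each). The same Hist2h3b and Hist1h4i changed in the other direction between early and mid 2-cell embryos in standard medium. Those 2 comparisons share the standard mid 2-cell libraries.

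At 48 h, 10 members were higher without pyruvate and Hist1h2ap was lower, of 25 tested, where 56.8% of genes were called, 22.6% higher and 34.3% lower. By class, the higher members were 2 H2A, 2 H2B, 3 H3 and 3 H4 genes. Hist2h3c1, a gene for H3.2, stood at 14.8, 19.2, 14.7, 16.1 and 14.9 CPM without pyruvate, against 3.47, 4.06 and 3.85 CPM (difference 1.82, SE 0.31, limma adjusted p = 5.3e-06). Hist1h4c, an H4 gene, stood at 5.89, 6.52, 4.96, 7.55 and 9.04 CPM without pyruvate, against 1.57, 1.503 and 1.02 CPM (difference 1.71, SE 0.28, limma adjusted p = 3.5e-06). Hist4h4, an H4 gene outside the large clusters with 7.07% shared stretches, stood at 1.77, 1.95, 1.96, 1.94 and 2.41 CPM without pyruvate, against 0.215, 0.251 and 0.589 CPM (difference 1.16, SE 0.24, limma adjusted p = 8.5e-05). None of these 3 overlapped between media. Hist2h2aa1 (difference 1.42), Hist1h2aa (1.36), Hist1h4a (1.28), Hist1h3f (0.91), Hist1h2bk (0.80), Hist2h3b (0.68) and Hist1h2bj (0.68) were the others. The summed level without Hist1h2ap was 57.1 CPM without pyruvate, against 23.1 CPM in standard medium. The H3 members alone summed to 20.9 ± 2.48 CPM without pyruvate, against 6.15 ± 0.0838 CPM (SD, n = 5 and 3). Hist1h2bk would not have passed the filter without the pyruvate-free 48 h libraries, so its call adds no support.

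At 52 h, 13 members were higher and 2 lower without pyruvate, where 63.3% of genes were called, 31.9% higher and 31.3% lower. Hist2h3c1 stood at 12.2, 11.96, 8.74 and 16.2 CPM without pyruvate, against 1.28, 1.31 and 4.57 CPM (difference 2.08, SE 0.32, limma adjusted p = 1.2e-06), and Hist2h3b at 5.51, 12.9, 3.35 and 4.18 CPM, against 0.909, 0.855 and 0.562 CPM (difference 1.92, SE 0.30, limma adjusted p = 1.2e-06). Hist2h2be, an H2B variant known from mouse olfactory neurons that shares no 50-base stretch with another gene, stood at 2.41, 2.597, 1.76 and 3.83 CPM without pyruvate, against no reads in 2 standard libraries and 0.172 CPM in the other (limma adjusted p = 4.4e-05). The H3 members summed to 23.1 ± 8.13 CPM without pyruvate, against 4.83 ± 1.58 CPM (SD, n = 4 and 3). Hist1h2ac and Hist2h3c2 would not have passed the filter without the pyruvate-free libraries of this age, so their calls add no support. Beside Hist1h2ap, Hist1h2bh was lower (difference -0.73, SE 0.27, limma adjusted p = 0.0169). That call was lost with a pseudocount of 0.1, without standard very late 2-cell library 1 or 3, and without pyruvate-free very late 2-cell library 2. Quantile scaling gave 7 higher and 3 lower, and 8 members were called without very late 2-cell library 3. There were 7 members called higher at both 48 and 52 h: Hist1h2aa, Hist1h3f, Hist1h4c, Hist2h2aa1, Hist2h3b, Hist2h3c1 and Hist4h4. Of all genes, 22.6% were higher at 48 h and 31.9% at 52 h, and the share higher at both was not computed. The 2 ages have different control libraries but were tested in 1 fit with a shared spread.

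At 55 h, 12 members were higher without pyruvate and none lower, where 57.2% of genes were called, 37.7% higher and 19.5% lower. Hist2h3c1 stood at 2.25, 0.662, 7.90 and 2.64 CPM without pyruvate, against no reads in any of the 4 early 4-cell libraries (limma adjusted p = 2.6e-06). Hist1h2aa stood at 1.69, 0.911, 1.76 and 1.78 CPM, likewise against no reads in any early 4-cell library (limma adjusted p = 2.6e-07). Hist3h2a stood at 1.303, 1.39, 6.26 and 5.10 CPM without pyruvate, against at most 0.0347 CPM in early 4-cell; this gene and Hist1h3g would not have passed the filter without the pyruvate-free libraries of this age, so their calls add no support. The H3 members summed to 8.75 ± 5.23 CPM without pyruvate, against 0.302 ± 0.159 CPM (SD, n = 4 each). Hist1h2bc stood at 6.10, 3.52, 6.12 and 2.96 CPM without pyruvate, against 0.556, 1.16, 0.4661 and 2.25 CPM (difference 1.46, SE 0.26, limma adjusted p = 1.3e-05). Under quantile scaling 6 were higher and 1 lower. Age is matched here but cell stage is not.

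Maternal transcripts moved with these differences. The 5 oocyte and maternal markers summed to 11269 to 14420 CPM without pyruvate at 48 h, against 2572 to 2721 CPM in standard medium, to 3401 to 4174 against 587 to 740 CPM at 52 h, and to 490 to 621 against 190 to 257 CPM at 55 h. Their part in the higher histone levels was not tested. Of markers of other cells, the 4 haemoglobin and blood genes in the table (2 of them below 1 CPM in every library) summed to 58.8 to 88.5 CPM without pyruvate at 55 h, against 7.09 to 24.6 CPM, and to 14.7 to 27.1 against 53.7 to 72.6 CPM at 52 h. The 8 cumulus and granulosa genes summed to 11.5 to 18.7 CPM without pyruvate at 48 h, against 6.13 to 8.09 CPM. The 6 sperm genes, of which 5 stayed below 1 CPM in every such library, summed to 2.62 to 4.23 CPM against 0.302 to 1.03 CPM at 48 h. The part of these lists in the result was not tested.

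At the morula stage fewer members could be tested: 12 passed the filter. Without pyruvate, Hist1h2ap and Hist1h2ae were called lower and Hist1h2bc and Hist3h2a higher, where 39.4% of genes were called, 32.8% higher and 6.62% lower; quantile scaling and the length correction each gave 1 higher and 3 lower. Hist1h2ap stood at 41.5, 68.1, 72.7, 66.4 and 100.02 CPM without pyruvate, against a lowest of 61.6, a median of 124 and a highest of 373 CPM in standard morulae (difference -1.05, SE 0.38, limma adjusted p = 0.0335). The groups overlapped, and the call was lost in 10 alternatives, among them the fit without standard morula libraries 1 and 2. Hist1h2bc stood at 1.53, 0.933, 1.296, 8.96 and 13.1 CPM without pyruvate, against 0.332 to 0.622 CPM, and Hist3h2a at no reads, 0.944, 0.876, 4.71 and 7.19 CPM, against 0.0471 to 0.546 CPM. Neither gene would have passed the filter without the pyruvate-free morulae, where they are high, so those 2 calls add no support. The high values were those of pyruvate-free libraries 4 and 5, which also had the high trophectoderm sums. Without those 2 libraries neither gene passed the filter, 1 member was called (Hist1h2ap, difference -1.23), and Hist1h2ae was -1.38 with an adjusted p of 0.0576.

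Without lactate no member of 12 was called by limma and none had an unadjusted p under 0.05, where 11.8% of genes were called, 8.37% higher and 3.42% lower. Hist1h2ap stood at 157, 214, 276, 167 and 161 CPM without lactate, within the range of standard morulae. Leaving out standard morula libraries 1 and 2 gave 3 members higher without lactate.

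Of the 7 H2A genes tested, 6 were higher with the inhibitor among pyruvate-free morulae. Of these, Hist1h2af, Hist1h2ah and Hist1h2ak entered the test only through the libraries given the inhibitor. With KY-PYR-9, 7 members were higher and 1 lower than without it, of 12 tested, where 75.7% of genes were called, 8.61% higher and 67.1% lower, and the median of all genes was -0.90. Hist1h2ap stood at 352, 360, 294 and 458 CPM with the inhibitor, against 41.5, 68.1, 72.7, 66.4 and 100.02 CPM without it (difference 2.41, SE 0.42, limma adjusted p = 3.4e-05). Hist1h2ae stood at 5.01, 4.87, 4.40 and 6.77 CPM with the inhibitor, against 0.0854, 0.241, 0.154, 0.579 and 0.384 CPM (difference 2.28, SE 0.51, limma adjusted p = 4.3e-04). Hist1h2an stood at 7.21, 3.48, 6.04 and 4.56 CPM with the inhibitor, against no reads to 1.38 CPM (difference 2.25, SE 0.31, limma adjusted p = 1.7e-06). No library without the inhibitor reached the range of those with it in these 3 genes. Hist1h2af (1.71), Hist1h2ak (1.34), Hist1h2ah (1.16) and Hist1h4i (0.49) were the other members called higher. Hist1h2af, Hist1h2ah and Hist1h2ak would not have passed the filter without the libraries given the inhibitor, so their calls add no support.

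Hist1h2bc was called lower, at 0.105, 0.166, 0.0799 and 0.157 CPM with the inhibitor, against 1.53, 0.933, 1.296, 8.96 and 13.1 CPM without it, but it would not have passed the filter without the pyruvate-free libraries lacking the inhibitor, and its call adds no support. Without pyruvate-free libraries 4 and 5 the other 7 were still called higher and Hist1h2bc was not tested. Those 7 include Hist1h2af, Hist1h2ah and Hist1h2ak, which passed the filter only through the inhibitor libraries. The inhibitor was given only without pyruvate, so the labels hold no inhibitor group in standard medium. The 12 near-identical H2A genes, Hist1h2ap included, summed to 379 CPM with the inhibitor, against 71.4 CPM without it, and the early 16-cell group, at 80 h in standard medium, had 414 CPM. Trophectoderm sums were 48.5 to 74.3 CPM with the inhibitor and 255 to 1086 CPM without it, and their part in the result was not tested.

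Pyruvate-free blastocysts had less H2A, and the H2B and H4 genes called higher mostly rose less than the median of all genes. Of 28 members tested, 13 were lower and 9 higher than in standard blastocysts, while 87.9% of genes were called, 80.8% higher and 7.14% lower, and the median of all genes was 1.15. Of 13 H2A genes tested 12 were lower and none higher; of 4 H2B genes all were higher; of 7 H3 genes 1 was lower and 1 higher; and of 4 H4 genes all were higher. The direction of the higher calls rests on the scaling. Other scalings took the median of all genes to between 0.06 and 0.14 and gave 1 higher and 17 lower members (median-ratio), 0 and 16 (quantile) or 4 and 14 (length trend).

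**Figure D5:**
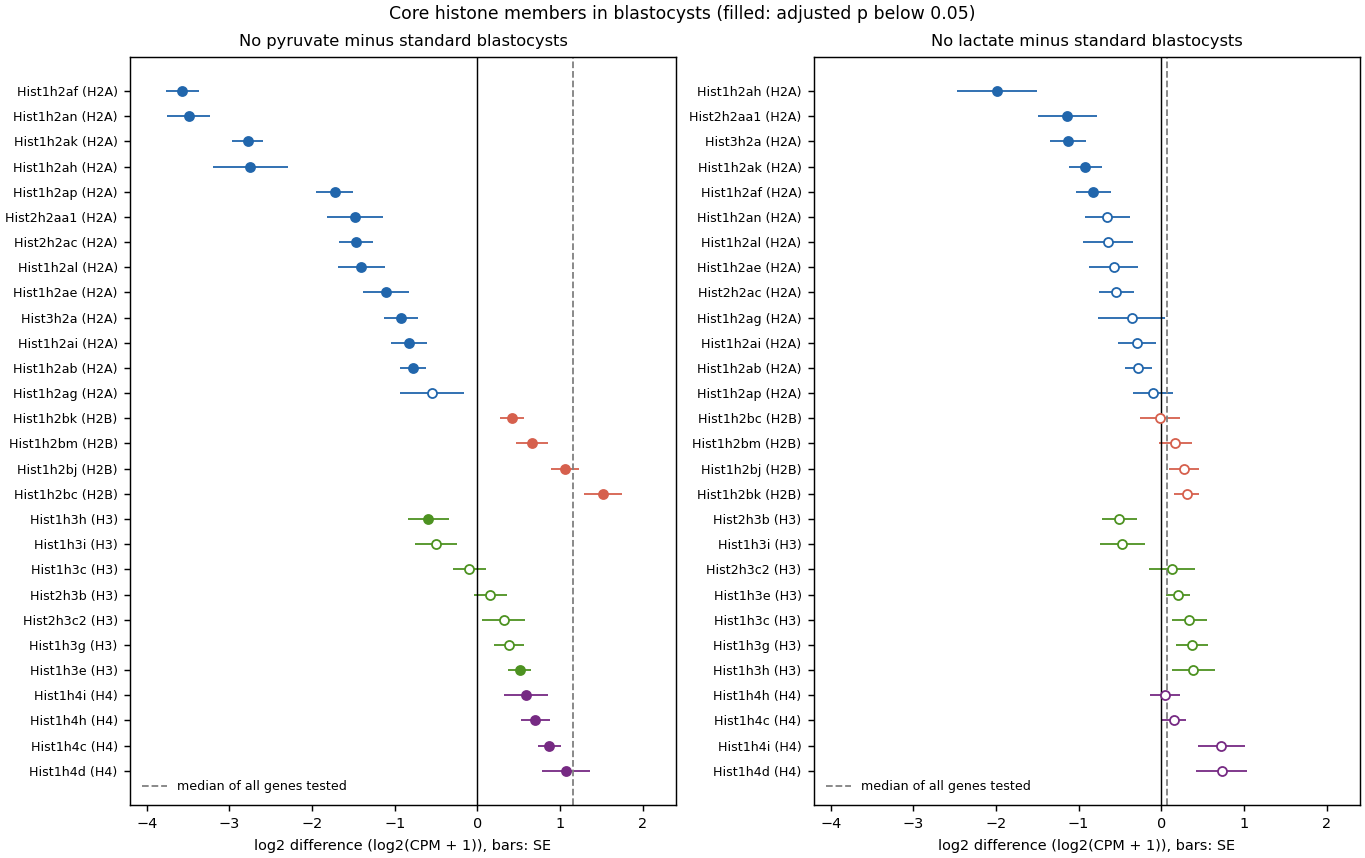
Difference of each tested member on the log2(CPM + 1) scale, with its SE, between pyruvate-free and standard blastocysts (left) and between lactate-free and standard blastocysts (right), coloured by histone class and filled where the adjusted p is below 0.05, with the median of all genes as a dashed line. In the left panel the H2A genes lie left of 0 and the H2B and H4 genes right of it, mostly left of the median of all genes at 1.15, and in the right panel 5 H2A genes are filled.

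Hist1h2af stood at 0.458, 0.412, 0.109, 0 and 0.00112 CPM without pyruvate, against 16.8, 10.6, 12.9 and 12.5 CPM (difference -3.57, SE 0.20, limma adjusted p = 2.4e-09). Hist1h2an stood at no reads, 1.90, 1.24, 0.743 and 1.06 CPM without pyruvate, against 30.6, 14.96, 24.4 and 14.6 CPM (difference -3.49, SE 0.26, limma adjusted p = 3.5e-09). Hist1h2ap stood at 228, 227, 208, 161 and 288 CPM without pyruvate, against 915, 466.25, 711 and 913 CPM (difference -1.73, SE 0.23, limma adjusted p = 9.6e-07). None of the 3 overlapped, and all 3 calls held in every alternative run, with Hist1h2ap at -3.15 to -1.81 under other scalings. The other H2A genes that fell were Hist1h2ak (-2.78), Hist1h2ah (-2.75), Hist2h2aa1 (-1.48), Hist2h2ac (-1.47), Hist1h2al (-1.40), Hist1h2ae (-1.11), Hist3h2a (-0.92), Hist1h2ai (-0.83) and Hist1h2ab (-0.78). Hist1h2al is annotated as a processed pseudogene. Summed, the 12 near-identical H2A genes, Hist1h2ap included, came to 230 ± 47.1 CPM without pyruvate (SD, n = 5), against 821 ± 225 CPM in standard blastocysts (SD, n = 4).

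Hist1h2ae kept a larger part of its level than Hist1h2af and Hist1h2an did, at 17.2, 8.19, 9.97, 9.96 and 18.1 CPM without pyruvate, against 19.1, 26.2, 30.4 and 35.7 CPM (difference -1.11, SE 0.28, limma adjusted p = 0.0011). Hist1h2bc stood at 37.8, 30.7, 22.5, 25.2 and 36.4 CPM without pyruvate, against 7.06, 13.9, 12.1 and 7.59 CPM (difference 1.52, SE 0.23, limma adjusted p = 5.7e-06), without overlap, and was the highest member after Hist1h2ap in that group. Across median-ratio scaling, quantile scaling and removal of the trend with gene length its difference was 0.13 to 0.90. It was not called under median-ratio or quantile scaling. Hist1h4c stood at 1.32, 0.762, 1.06, 1.53 and 1.43 CPM without pyruvate, against 0.323, 0.248, 0.203 and 0.0504 CPM, and the groups did not overlap. Hist1h4c, Hist1h2bm, Hist1h3e and Hist1h4h would not have passed the filter without the pyruvate-free blastocysts, nor Hist1h2ah and Hist1h2ai without the standard ones, so these 6 calls add no support. Hist1h4d (1.07), Hist1h2bj (1.06), Hist1h4h (0.70), Hist1h2bm (0.67), Hist1h4i (0.59), Hist1h3e (0.51) and Hist1h2bk (0.42) were the others called higher, each below the median of all genes. Trophectoderm sums were 7500 to 8389 CPM without pyruvate and 12879 to 17644 CPM in standard blastocysts, and their part in the result was not tested.

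Lactate-free blastocysts differed less from the standard ones. Of 28 members tested 5 were lower and none higher, where 23.3% of genes were called, 9.29% lower and 14% higher. All 5 were H2A genes: Hist1h2ah (-1.99), Hist2h2aa1 (-1.14), Hist3h2a (-1.13), Hist1h2ak (-0.92) and Hist1h2af (-0.82). Hist1h2ah would not have passed the filter without the standard blastocysts, so its call adds no support. The Hist2h2aa1 call was lost in 6 alternatives, the Hist1h2af call in 2, and the Hist1h2ah and Hist1h2ak calls in 1 each. Hist3h2a stood at 9.93, 6.64, 7.88 and 8.31 CPM without lactate, against 23.6, 17.6, 24.2 and 12.6 CPM (difference -1.13, SE 0.21, limma adjusted p = 0.0014), without overlap, and its call held in every alternative run. Hist1h2ap, at 691, 758, 907 and 444 CPM without lactate, was not called and lay within the range of the standard libraries but for the lowest value. Without standard blastocyst library 4, 10 members were called. Trophectoderm sums were 8232 to 10211 CPM without lactate and 12879 to 17644 CPM in standard blastocysts, and their part in the result was not tested. The pyruvate and lactate comparisons share the standard blastocysts, so the 2 sets of values are not independent.

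The pyruvate effect differed between blastocysts and morulae for 14 of 26 members tested for that difference, 5 higher and 9 lower, where 55.4% of genes were called, 44.1% higher and 11.3% lower. The 9 lower were H2A genes, with differences between effects from -3.33 (SE 0.29, limma adjusted p = 3.9e-08) for Hist1h2af to -0.92 (SE 0.18, limma adjusted p = 2.8e-04) for Hist1h2ab. Hist1h2ap was not among them. Hist1h2af and Hist1h2ah would not have passed the filter of this fit without the standard blastocysts, so their calls add no support. For the other members called, this was not counted in this fit. In the 114 h fit Hist1h2bm, Hist1h3e and Hist1h4c passed only through the pyruvate-free blastocysts. In the standard series Hist1h2ab and Hist2h2ac passed only through the blastocysts. The calls of these members here likewise add no support. Other scalings moved the split to 1 higher and 13 lower (median-ratio), 1 and 12 (quantile) and 4 and 9 (length trend). For lactate, 1 of 22 tested members differed between the 2 stages, Hist3h2a (-1.20, SE 0.32, limma adjusted p = 0.0194), where 10.2% of genes were called, 6.1% lower.

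Members with each kind of annotated ending changed. Of members with at least 100 annotated bases after it, 7 of 13 were highest in a 2-cell group and 6 in the standard blastocyst. Of those with fewer, 3 of 13 were highest in a 2-cell group and 8 in the blastocyst, and of those without a match 5 of 16 and 9. At 48 h without pyruvate, 4 of 10 tested members with the longer ending, 3 of 6 with the shorter one and 3 of 9 without a match were called higher, beside 22.6% of all genes. Those with the shorter ending include Hist1h2bk, which passed the filter only through the pyruvate-free 48 h libraries. Genes with overlapping promoter windows on opposite strands could differ in level or lie close. The windows of Hist1h2ap and the H2B gene Hist1h2br overlap by 233 bases, yet in standard blastocysts Hist1h2ap averaged 751 CPM and Hist1h2br 0.155 CPM. Hist1h2an and Hist1h2bp share 261 bases and averaged 21.1 and 0.216 CPM there. In pyruvate-free blastocysts Hist1h2ah, which shares 277 bases with Hist1h2bk, averaged 3.7e-04 CPM and Hist1h2bk 1.595 CPM, against 8.60 CPM for Hist1h2ah and 0.942 CPM for Hist1h2bk in standard blastocysts. Hist1h2ag and Hist1h2bj, which share 252 bases, averaged 2.53 and 3.05 CPM in pyruvate-free blastocysts, against 4.17 and 0.930 CPM in standard ones.

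Genes that make, carry or process histones were followed beside the members from lists chosen for their known roles. Slbp, which binds the stem-loop and is needed for its processing and translation, averaged 10841, 2285, 676 and 502 CPM at 34, 42, 48 and 52 h in standard medium and 120.5 to 461 CPM in every later standard group. At 48 h it averaged 1215 ± 371 CPM without pyruvate, against 676 ± 112 CPM (SD, n = 5 and 3; difference 0.81, SE 0.20, limma adjusted p = 9.1e-04). Npat, a coactivator of histone genes in S phase, averaged 41.2 ± 9.32 CPM without pyruvate at 48 h, against 120.4 ± 29.4 CPM (difference -1.52, SE 0.26, limma adjusted p = 6.4e-06). In blastocysts Npat averaged 22.4 ± 5.10 CPM without pyruvate, against 5.89 ± 2.45 CPM (difference 1.80, SE 0.21, limma adjusted p = 3.0e-07). Of 30 DNA replication genes, 23 were lower and 2 higher without pyruvate at 48 h (median difference -1.09 against -0.14 for all genes, of which 34.3% were lower and 22.6% higher). At 114 h 26 were higher and none lower (median 1.31 against 1.15 for all genes, of which 80.8% were higher), a share near that of all genes, as it was for the processing genes and chaperones at that age. With the inhibitor 18 were lower and 1 higher than in pyruvate-free morulae without it, below the 67.1% of all genes that were lower. Of 21 histone mRNA processing genes in the table, 12 were lower and 7 higher without pyruvate at 48 h, and 19 were higher and none lower at 114 h. Among 20 histone chaperones, 13 were lower and 3 higher at 48 h, and of 19 tested at 114 h 17 were higher and none lower. Of the replication-independent variants, which are also made outside S phase and mostly carry ordinary poly(A) tails, 6 of 8 tested were lower and 2 higher at 48 h, and 5 of 9 were lower and 3 higher at 114 h. H2afz, the gene for H2A.Z, averaged 446 CPM without pyruvate at 48 h, against 1327 CPM, and H3f3b, a gene for H3.3, 4004 CPM, against 2715 CPM. H1foo, the oocyte linker histone, averaged 766 CPM without pyruvate at 48 h, against 112 CPM (difference 2.76, SE 0.19, limma adjusted p = 5.9e-14).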

How the data were processed

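The deposited values are CPM per gene, made by the authors with an offset of 0.0001 added; per the submitters' processing notes, reads were aligned to mm10 with STAR 2.6.1d, and the counting tool and annotation are not given in the sources used here. Of 91 columns, 85 matched a sample title and 6 were not used. The 26 rows without a gene name (0.0458 to 0.194% of each library) were dropped. Whole reads were recovered for 70.6 to 79.3% of low values, too few for a count test.

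Each fit (the 12 standard groups; 34 to 55 h; 78 h; 114 h; the 2 contrasts between stages) kept genes that passed 1 CPM in 3 or more of its libraries. They were tested with limma 3.58.1 (R 4.3.3) on log2(CPM + 1) with a mean trend, two-sided, and Benjamini-Hochberg adjustment over all genes at 0.05. Differences on this scale understate changes of low genes. Tdh, missing in morula library 1, was dropped. Alternatives were a pseudocount of 0.1, no filter, median-ratio and quantile scaling, removal of the trend with gene length, fits of 2 groups, a replicate block and leaving libraries out.

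The members, lists and tests were chosen with earlier results of these data known. Genes named with values were the 12 members with the highest mean, called members of at least 10 CPM, testis-type members, those outside the Hist1 cluster and leading list genes; any other was named after its values were seen.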

Additional observations from a re-analysis of the deposited data

Results flagged for a closer look

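In 57 groups of values tested for a library far from the others, where chance alone gives about 1 in 20, the summed level of the members other than Hist1h2ap stood apart in 2 libraries. Pyruvate-free mid 2-cell library 3 was lowest, at 26.7 CPM, against 31.3 to 31.8 CPM in the other 3. Pyruvate-free late 2-cell library 4 was highest, at 62.9 CPM, against 54.4 to 56.7 CPM in the other 4.

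The effect of pyruvate differed between blastocysts and morulae, by the limma interaction contrast, for 14 of 26 members tested, a share near the 55.4% of all genes called in that contrast. The difference between the effects, in log2 units, was -3.33 for Hist1h2af, -3.26 for Hist1h2an, -2.78 for Hist1h2ah, -2.53 for Hist1h2ak, -2.05 for Hist3h2a, -1.61 for Hist2h2aa1, -1.52 for Hist1h2al, -1.32 for Hist2h2ac and -0.92 for Hist1h2ab. It was 1.52 for Hist1h4d, 1.13 for Hist1h2bj, 0.89 for Hist1h4c, 0.79 for Hist1h2bm and 0.54 for Hist1h3e. Hist1h2af and Hist1h2ah passed the filter of this contrast only through the standard blastocysts, so their calls add no support. Hist1h2bm, Hist1h3e and Hist1h4c passed the 114 h filter only through the pyruvate-free blastocysts. Hist1h2ab and Hist2h2ac passed that of the standard series only through the blastocysts. The calls of these members here likewise add no support. The effect of lactate differed for Hist3h2a alone of 22 tested, by -1.20, where 10.2% of all genes were called.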

How the results depend on the processing

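Of 149 member calls, 82 held in every alternative run and 144 never changed sign. Signs changed for Hist1h4c in mid against early 2-cell (-0.093, quantile), for Hist1h2bk (-0.34 median-ratio, -0.37 quantile), Hist1h3e (-0.090, -0.15) and Hist1h4i (-0.34, -0.38) in pyruvate-free against standard blastocysts, and for Hist1h3e in the pyruvate contrast between stages (-0.013, median-ratio). The cause was not tested. Leaving out pyruvate-free morula libraries 4 and 5 was an alternative added once the data had been seen.

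The replicate block was fitted on the 2 groups compared, so it changes 2 choices at once. Counts of called members moved by more than 1.5 times as follows. Mid against early 2-cell gave 8 (median-ratio), 10 (quantile) and 13 (length trend) in place of 5, and late against mid 2-cell 11 (length trend) in place of 6. Very late against late 2-cell gave 0 (quantile), 1 (2 groups) and 1 (replicate block) in place of 3. Early 4-cell against very late 2-cell gave 9 (pseudocount), 8 (no filter), 3 (2 groups) and 3 (block) in place of 5. Late against early 4-cell gave 1 (no filter) and 1 (block) in place of 0. Early 8-cell against late 4-cell gave 1 (pseudocount, median-ratio, quantile) or 0 (no filter, 2 groups, block) in place of 2. Morula against late 8-cell gave 0 (pseudocount, no filter, either scaling, 2 groups, without morula libraries 1 and 2) or 2 (block) in place of 1. Early 16-cell against morula gave 14 (quantile) in place of 9.

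Without pyruvate, the counts were 7 (median-ratio) and 9 (quantile) at 42 h in place of 3, 9 (block, against 10 in the same 2 groups without it) at 52 h in place of 15, and 7 (quantile, length trend, 2 groups, block) at 55 h in place of 12. Pyruvate-free morulae gave 1 in place of 4 (2 groups, block, without standard libraries 1 and 2, without pyruvate-free libraries 4 and 5), and lactate-free morulae 1 (no filter) and 3 (without standard libraries 1 and 2) in place of 0. The inhibitor comparison gave 16 (no filter) in place of 8. Lactate-free blastocysts gave 3 (pseudocount, no filter) and 8 (median-ratio) in place of 5. The lactate contrast gave 0 (pseudocount), 3 (median-ratio, quantile), 2 (length trend) and 6 (without standard morulae 1 and 2) in place of 1. The summed level in blastocysts was 896 CPM, against 145 CPM without Hist1h2ap and 1689 CPM with median-ratio scaling. In standard early, mid and late 2-cell embryos it was 29.4, 59.3 and 106 CPM. With median-ratio scaling these sums were 69.5, 75.2 and 70.8 CPM. The early 2-cell sum was 60.9 CPM with quantile scaling and 60.3 CPM with the length trend removed. The course of the sum within the 2-cell stage thus rests on the scaling. The replicate numbers do not pair the libraries, and with the block in the 2 groups no other count moved by more than 1.5 times.

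Leaving out 1 library at a time gave 4 to 5 called members for mid against early 2-cell, 3 to 6 for late against mid 2-cell, 2 to 4 and 4 to 7 for the next 2 steps, 0 to 1, 0 to 2, 0 to 1 and 0 to 1 up to the morula, 7 to 11, 6 to 8 and 14 to 17 up to the blastocyst. It gave 3 to 4, 9 to 11, 8 to 16 and 9 to 12 without pyruvate at 42, 48, 52 and 55 h, 2 to 4 and 0 to 1 for the morula media, 7 to 9 for the inhibitor, 19 to 23 and 4 to 10 for the blastocyst media, and 12 to 16 and 0 to 4 for the contrasts between stages. At the shallowest depth a level of 1 CPM carries a counting error of 31.3%, so members below it are poorly resolved.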
